A study of Rattus norvegicus with 12 samples.

Results

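The genes described here are 31 markers of the cells that surround muscle in the heart, 16 of fibroblasts and 15 of the epicardium or of mesothelium in general. A member was measured where a probe set on the array carried its gene symbol and no other. Of the 31, 28 were measured by 30 probe sets, among 14324 genes with such a probe set. All 16 fibroblast markers and 12 of the 15 epicardial or mesothelial markers were among them, and Upk3b, Krt7 and Lrrn4 were not matched to a probe set. The cells came from hearts of 2-day-old Sprague-Dawley rats of a single litter, were grown as monolayers for 3 days, and then spent 3 days in 50 µg/mL DEHP or in vehicle. DEHP, di(2-ethylhexyl) phthalate, is the plasticizer of soft medical plastics, and it was dissolved in DMSO, so that both groups received 0.1% DMSO. There were 6 DEHP cultures and 6 control cultures, with 1 Affymetrix array each. The labels call the cultures of a group biological replicates, but since the pups were littermates the tests measure the spread between cultures and not between litters.

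Cardiac fibroblasts make and maintain the matrix of the heart and are recognised by the receptor PDGFRA, the transcription factor TCF21 and surface or secreted proteins such as THY1 and dermatopontin. The epicardium is the mesothelial sheet that covers the heart. It expresses the transcription factors WT1 and TBX18, the retinoic acid synthesising enzyme ALDH1A2, simple epithelial keratins and mesothelial surface proteins such as mesothelin and uroplakins, and in the embryo it is a source of cardiac fibroblasts. Preparations of neonatal heart muscle cells usually carry some of these cells along, so their markers can be read in the same RNA. Each deposited value is the ratio of an array to the median of that probe set over the 12 arrays, and values below are log2 of that ratio. The level of a gene is not held in such values, so the presence of muscle or other cells cannot be checked from marker levels, and no gene can be called more abundant than another. For a gene whose groups do not overlap, this centring also makes the DEHP value and the control value nearest each other equal in size and opposite in sign. In bulk RNA, fewer cells of a type and less RNA per cell cannot be told apart.

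Both marker groups held members that rose and members that fell under DEHP. Of the 16 fibroblast markers, 6 fell and 2 rose at an adjusted p under 0.05 in limma (Benjamini-Hochberg over all 27342 probe sets), and the other 8 missed that threshold. Of the 12 epicardial or mesothelial markers, 5 rose, 2 fell and 5 missed the threshold. Over all 14324 genes 14.4% were called higher and 10.2% lower, 24.6% in all. In shares, 12.5% of fibroblast markers were called higher and 37.5% lower, and 41.7% of epicardial or mesothelial markers were called higher and 16.7% lower. The median log2 fold was −0.17 for fibroblast markers and −0.10 for epicardial or mesothelial markers, beside −0.02 over all genes, and the mean log2 folds were −0.19 and 0.025, so the median and the mean of the epicardial or mesothelial group differ in sign. The members were chosen with results of these data known, and the difference between the marker groups was not tested.

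**Figure D1:**
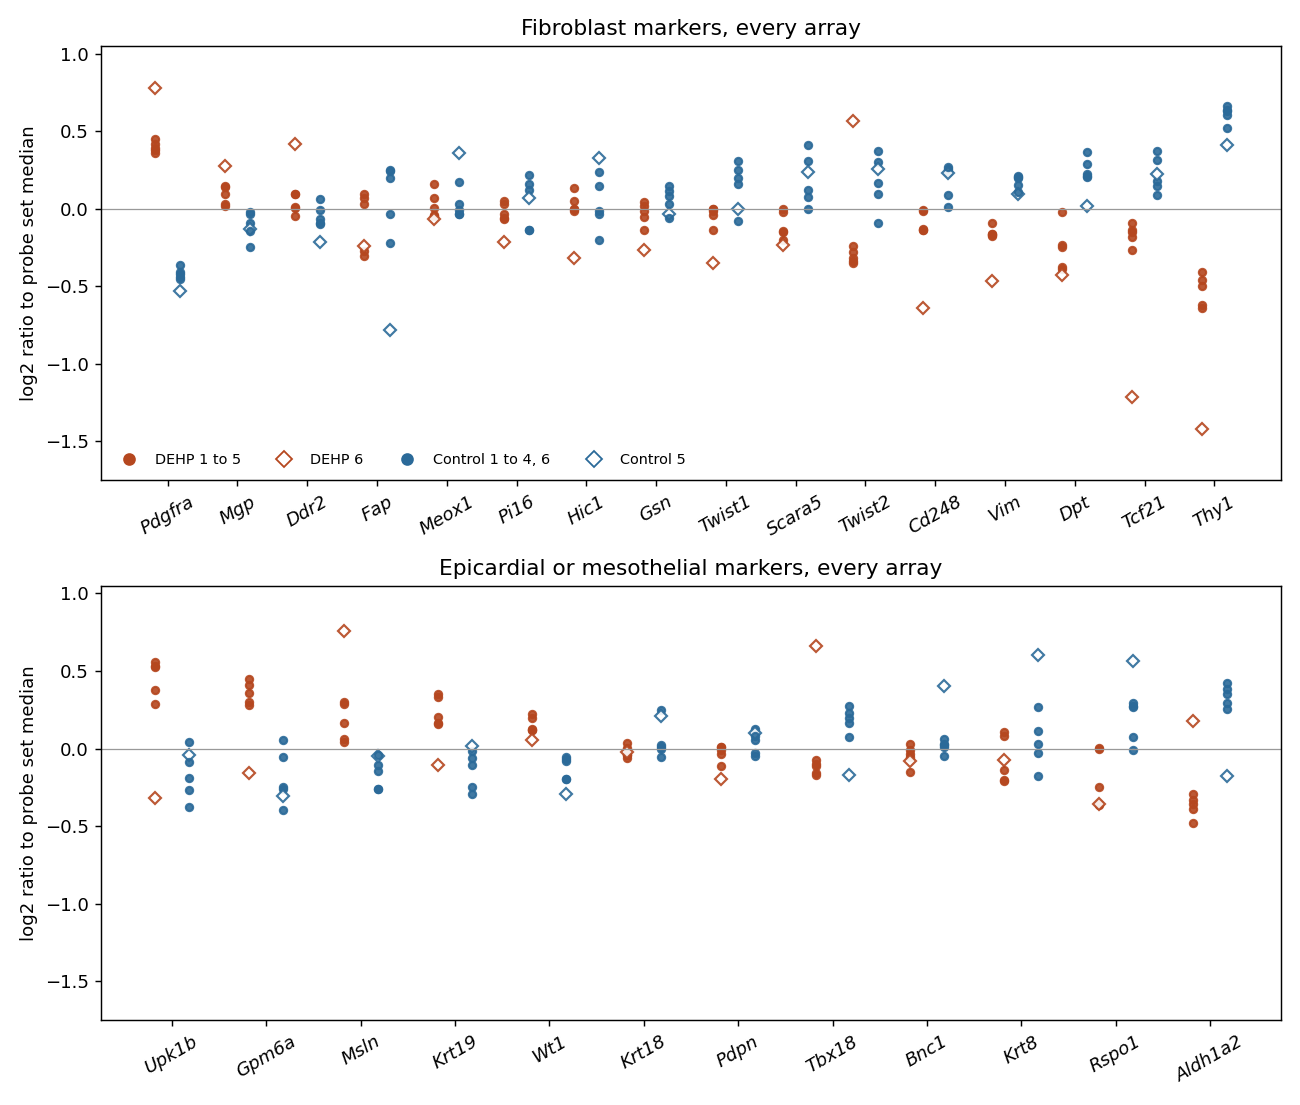
Log2 ratio of every measured member in every array, with fibroblast markers in the upper panel and epicardial or mesothelial markers in the lower, DEHP arrays left of control arrays for each gene, and genes ordered by fold. Open diamonds mark DEHP replicate 6 and control replicate 5. In Thy1 and Tcf21 DEHP replicate 6 lies far below the other DEHP arrays, while in Twist2 and Tbx18 it lies above every control array.

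DEHP replicate 6 and control replicate 5 stood apart over the whole array. The SD of log2 ratios over all probe sets was 0.27 in DEHP replicate 6 and 0.37 in control replicate 5, against 0.15 to 0.19 in the other 10 arrays. Among the 28 measured members, DEHP replicate 6 was the highest or the lowest DEHP array in 23, the lowest in 16 and the highest in 7. In 14 members the SD of the DEHP group was more than 2 times as large with this array as without it. Counts of calls and the calls that change without this array are therefore given without it as well. Without DEHP replicate 6, 7 fibroblast markers were lower and 2 higher, and 3 epicardial or mesothelial markers were lower and 5 higher, where 9.77% of all genes were called lower and 14.0% higher, 23.7% in all.

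Promoters come from a RefSeq table (build GRCr8) that matched 22 of the 31 members and gives 250 bases before and 50 after a gene's start. Those of the genes with the largest rise and the largest fall among the matched members of each marker group are shown, so that the sequences in front of genes that moved apart can be compared, and this choice was made after the values were seen. TCF21, TWIST1 and TWIST2 belong to the basic helix-loop-helix factors, which bind the E-box CANNTG, while GGGCGG is the GC box of SP1 and GGAATG the core recognised by TEAD factors. Capitals mark any of these 3 motifs on either strand, and no 2 marked matches overlap.
Pdgfra (chr14:33408467-33408766, minus strand): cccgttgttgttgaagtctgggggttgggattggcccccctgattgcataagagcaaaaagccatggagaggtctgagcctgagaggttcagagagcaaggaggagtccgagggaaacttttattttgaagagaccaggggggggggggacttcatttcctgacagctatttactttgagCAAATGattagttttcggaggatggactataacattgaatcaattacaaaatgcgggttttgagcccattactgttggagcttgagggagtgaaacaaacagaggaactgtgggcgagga
Tcf21 (chr1:24520249-24520548, plus strand): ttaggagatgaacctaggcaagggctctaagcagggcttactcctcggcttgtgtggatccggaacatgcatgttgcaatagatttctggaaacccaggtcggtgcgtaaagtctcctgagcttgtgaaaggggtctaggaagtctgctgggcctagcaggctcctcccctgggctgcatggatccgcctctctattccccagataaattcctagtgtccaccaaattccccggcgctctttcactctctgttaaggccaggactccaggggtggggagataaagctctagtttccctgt
Upk1b (chr11:75459131-75459430, plus strand): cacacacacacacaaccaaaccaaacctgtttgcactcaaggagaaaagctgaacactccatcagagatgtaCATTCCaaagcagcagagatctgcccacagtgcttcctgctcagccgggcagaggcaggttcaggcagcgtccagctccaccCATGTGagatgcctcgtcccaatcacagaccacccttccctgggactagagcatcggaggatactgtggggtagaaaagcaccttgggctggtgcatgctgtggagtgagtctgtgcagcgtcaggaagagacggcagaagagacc
Aldh1a2 (chr8:80758391-80758690, plus strand): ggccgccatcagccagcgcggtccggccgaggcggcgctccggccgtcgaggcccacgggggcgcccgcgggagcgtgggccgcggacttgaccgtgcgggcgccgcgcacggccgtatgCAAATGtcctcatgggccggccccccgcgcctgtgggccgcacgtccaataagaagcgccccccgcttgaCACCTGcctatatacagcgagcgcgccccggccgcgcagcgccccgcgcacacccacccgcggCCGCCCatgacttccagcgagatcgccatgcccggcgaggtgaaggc
The Pdgfra window holds 1 E-box, the Upk1b window 1 E-box and 1 GGAATG, and the Aldh1a2 window 2 E-boxes and 1 GGGCGG, while none of the 3 motifs is written in the Tcf21 window. CANNTG occurs in 16 of the 22 member promoters (72.7%) and in 71.6% of 27457 promoters of the same length. GGGCGG occurs in 10 member promoters (45.5%), against 34.9% of all, and GGAATG in 2 (9.09%), against 13.9%. These counts describe letters and not binding.

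Among fibroblast surface receptors, Pdgfra and Thy1 moved furthest and in opposite directions. Pdgfra, which encodes the alpha receptor for platelet-derived growth factor, had log2 ratios from 0.36 to 0.78 (median 0.40) under DEHP, against −0.53 to −0.36 (median −0.43) in controls. All 6 DEHP arrays lay above all 6 controls, and DEHP replicate 6 was the highest. It was 1.86-fold higher under DEHP (log2 fold 0.90 ± 0.07 SE, n = 6 each, limma adjusted p = 1.19e-06), and the log2 fold was 0.835 ± 0.037 without DEHP replicate 6. Thy1, a glycoprotein anchored to the membrane by lipid, ran from −1.42 to −0.41 (median −0.56) under DEHP and from 0.41 to 0.66 (median 0.62) in controls. The groups did not overlap, and the lowest value came from DEHP replicate 6, with the other DEHP arrays between −0.64 and −0.41. Thy1 was 2.38-fold lower under DEHP (log2 fold −1.25 ± 0.14, limma adjusted p = 4.46e-05), with a log2 fold of −1.10 without that array.

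Of the other receptors and surface proteins of fibroblasts, Cd248 and Scara5 fell. Cd248, which encodes endosialin of stromal cells and pericytes, ran from −0.64 to −0.01 (median −0.135) under DEHP and from 0.01 to 0.27 (median 0.235) in controls, so that the groups were apart by a narrow margin. Its log2 fold was −0.36 ± 0.10 (limma adjusted p = 0.0194), and it was −0.27 without DEHP replicate 6. Scara5, a scavenger receptor that takes up ferritin, ran from −0.235 to −0.001 (median −0.15) under DEHP and from 0.001 to 0.41 (median 0.18) in controls. These groups only just failed to overlap, and the log2 fold was −0.32 ± 0.07 (limma adjusted p = 0.00627). Ddr2, a receptor tyrosine kinase for collagen, did not pass (log2 fold 0.16, 95% interval 0.004 to 0.325 before adjustment, adjusted p = 0.165), and its DEHP arrays other than replicate 6, at 0.42, overlapped with the controls. Fap, a surface protease of activated fibroblasts, also did not pass (log2 fold −0.05, interval −0.40 to 0.31). The spread of Fap was wide in controls, where replicate 5 stood at −0.78 and the highest array at 0.25.

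The secreted and structural fibroblast genes gave a mixed picture. Dpt encodes dermatopontin, a small matrix protein that binds decorin, and ran from −0.425 to −0.02 (median −0.31) under DEHP, against 0.02 to 0.365 (median 0.22) in controls. It was 1.41-fold lower (log2 fold −0.50 ± 0.07, limma adjusted p = 0.000346) with no overlap between groups. Vim, the intermediate filament protein vimentin of mesenchymal cells, ran from −0.47 to −0.09 (median −0.17) under DEHP and from 0.09 to 0.21 (median 0.18) in controls. It fell 1.29-fold (log2 fold −0.37 ± 0.06, limma adjusted p = 0.000517), and the 5 DEHP arrays other than replicate 6 were close together, with an SD of 0.035. Mgp, matrix Gla protein, an inhibitor of calcification, moved the other way. Its values were 0.02 to 0.28 (median 0.12) under DEHP and −0.25 to −0.02 (median −0.11) in controls, with no overlap and a log2 fold of 0.23 ± 0.05 (limma adjusted p = 0.00788). Gsn, the actin-severing protein gelsolin, and Pi16, a peptidase inhibitor that marks adventitial fibroblasts, did not pass, at log2 folds of −0.11 (interval −0.24 to 0.01) and −0.097 (interval −0.25 to 0.055), and the groups overlapped in both.

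Among fibroblast transcription factors Tcf21 fell, and the call of Twist2 changed with DEHP replicate 6 and with the processing. Tcf21, a factor of the cardiac fibroblast lineage whose promoter is printed above, ran from −1.215 to −0.09 (median −0.17) under DEHP and from 0.09 to 0.37 (median 0.20) in controls. No DEHP array reached a control array, and the value of −1.215 was that of DEHP replicate 6, with the others between −0.26 and −0.09. The log2 fold was −0.56 ± 0.165 (limma adjusted p = 0.0311), and −0.39 ± 0.055 without that array (adjusted p = 0.000318). The call was lost without DEHP replicate 4 (adjusted p = 0.0511) and without control replicate 2 (0.0678), 4 (0.0533) or 6 (0.0648). Twist2, a basic helix-loop-helix factor of mesenchyme, had DEHP values of −0.35 to −0.24 in 5 arrays and 0.56 in replicate 6, against −0.09 to 0.37 (median 0.21) in controls. With all arrays it did not pass (log2 fold −0.34 ± 0.15, limma adjusted p = 0.141), but it did under quantile normalization (0.0431), with array weights (0.0042) and with the replicate block (0.0457). Without DEHP replicate 6 the groups did not overlap, and the log2 fold was −0.49 ± 0.07 (limma adjusted p = 0.000508).

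Twist1, the relative of Twist2, lay near the threshold. It ran from −0.35 to 0.00 (median −0.03) under DEHP and from −0.08 to 0.31 (median 0.18) in controls, and the groups overlapped. The log2 fold was −0.23 ± 0.08 (limma adjusted p = 0.062), and it passed without control replicate 3 (adjusted p = 0.0248) or control replicate 5 (0.0368), and with all arrays under quantile normalization (0.0332). Meox1, a homeobox factor linked to fibroblast activation, was at a log2 fold of −0.07 (interval −0.22 to 0.08) and Hic1, a repressor that marks quiescent mesenchymal progenitors, at −0.10 (interval −0.31 to 0.10). Neither passed, and both had overlapping groups.

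**Figure D2:**
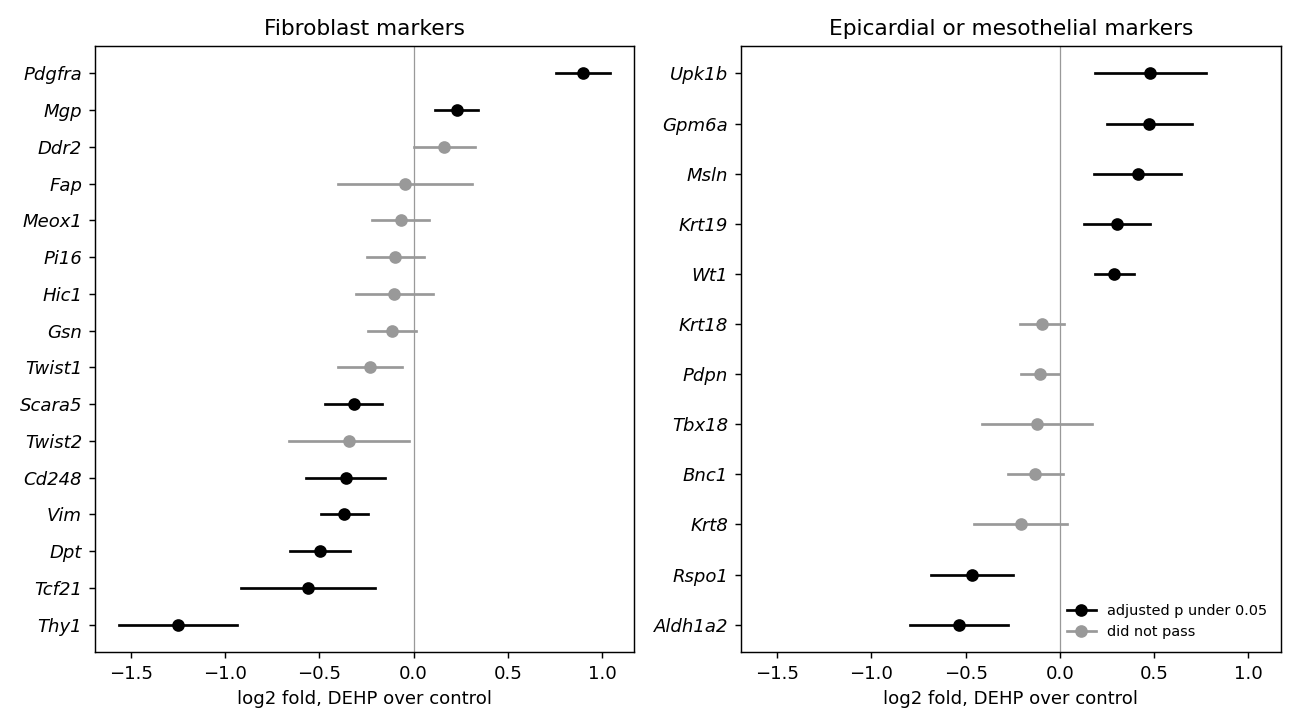
Log2 fold of each member, DEHP over control, on the horizontal axis, with its 95% interval from limma before adjustment, over 6 DEHP and 6 control arrays. Black members passed an adjusted p of 0.05 and grey members did not. Ddr2, Twist1, Twist2 and Pdpn have intervals that leave out 0 but did not pass after adjustment.

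Among epicardial transcription factors, Wt1 rose while Tbx18 and Bnc1 did not pass. Wt1, the zinc finger factor of Wilms tumour, ran from 0.055 to 0.22 (median 0.12) under DEHP and from −0.295 to −0.055 (median −0.14) in controls. The groups did not overlap, and Wt1 was 1.22-fold higher (log2 fold 0.29 ± 0.05, limma adjusted p = 0.000858), with a log2 fold of 0.31 without DEHP replicate 6. Tbx18, a T-box factor of the embryonic epicardium, had −0.17 to −0.08 in 5 DEHP arrays and 0.66 in replicate 6, against −0.17 to 0.28 (median 0.18) in controls, where replicate 5 was lowest. With all arrays its log2 fold was −0.12 ± 0.13 (limma adjusted p = 0.594). Without DEHP replicate 6 it was −0.25 ± 0.07 (adjusted p = 0.027), and without control replicate 5 as well it was −0.31 (adjusted p = 0.00018). Both arrays ran against the fold of Tbx18, so leaving them out had to give a larger fall. Bnc1, basonuclin 1, a zinc finger protein of epithelia, was at −0.13 (interval −0.28 to 0.02), and control replicate 5, at 0.40, lay above its fellow controls at −0.05 to 0.06.

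The mesothelial surface proteins Msln, Upk1b and Gpm6a rose. Msln, mesothelin, ran from 0.04 to 0.76 (median 0.22) under DEHP and from −0.26 to −0.04 (median −0.13) in controls, with no overlap. It was 1.33-fold higher (log2 fold 0.41 ± 0.11, limma adjusted p = 0.0151), and the highest value was that of DEHP replicate 6, with the next highest at 0.30. Without that array the log2 fold was 0.315 (adjusted p = 0.00417). Upk1b, a tetraspanin first known from the bladder lining and the largest rise of the group, had 0.29 to 0.56 in 5 DEHP arrays and −0.32 in replicate 6, against −0.38 to 0.04 (median −0.14) in controls. The log2 fold was 0.48 ± 0.14 (limma adjusted p = 0.0263) with all arrays and 0.61 ± 0.08 (adjusted p = 0.000161) without DEHP replicate 6, when the groups no longer overlapped. With replicate 6 kept, the call was lost without any of DEHP replicates 1, 2, 4 and 5 or control replicates 1, 3 and 4, at adjusted p of 0.051 to 0.0635. Gpm6a, a membrane glycoprotein of neurons that is also found in mesothelium, had 0.28 to 0.45 in 5 DEHP arrays and −0.16 in replicate 6, against −0.40 to 0.06 (median −0.26) in controls. It was 1.39-fold higher (log2 fold 0.475 ± 0.104, limma adjusted p = 0.00586), and the log2 fold was 0.56 without that array. Pdpn, podoplanin, a mucin-like protein of mesothelium and lymphatic endothelium, did not pass (log2 fold −0.10, interval −0.21 to −0.002 before adjustment, adjusted p = 0.169).

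Of the simple epithelial keratins, Krt19 rose and Krt8 and Krt18 did not pass. Krt19, the smallest type I keratin, had 0.16 to 0.35 in 5 DEHP arrays and −0.11 in replicate 6, against −0.295 to 0.02 (median −0.085) in controls. The log2 fold was 0.30 ± 0.08 (limma adjusted p = 0.018), and it was 0.36 (adjusted p = 0.002) without DEHP replicate 6, when the groups did not overlap. Krt8 and Krt18, the type II and type I partners that assemble into the same filament, were each read by 2 probe sets. Log2 folds were −0.21 ± 0.11 and −0.07 ± 0.09 for Krt8 and −0.10 ± 0.05 and −0.03 ± 0.07 for Krt18, with adjusted p between 0.266 and 0.812. The first Krt8 probe set had its highest value, 0.60, in control replicate 5, and without that array its log2 fold was −0.115.

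The secreted and enzymatic epicardial markers, Aldh1a2 and Rspo1, both fell. Aldh1a2, the enzyme that makes retinoic acid in the epicardium, had −0.48 to −0.29 in 5 DEHP arrays and 0.175 in replicate 6, against 0.26 to 0.42 in 5 controls and −0.175 in replicate 5. It was 1.45-fold lower (log2 fold −0.53 ± 0.12, limma adjusted p = 0.00639). Without DEHP replicate 6 and control replicate 5 the log2 fold was −0.71 (limma adjusted p = 4.59e-07). Since both arrays ran against the fold, leaving them out had to give a larger fall. Rspo1, R-spondin 1, a secreted amplifier of Wnt signals, ran from −0.37 to 0.004 (median −0.30) under DEHP and from −0.01 to 0.565 (median 0.27) in controls. The groups overlapped at their edges, in DEHP replicates 2 and 5 and control replicate 3, and the log2 fold was −0.47 ± 0.10 (limma adjusted p = 0.00532).

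**Figure D3:**
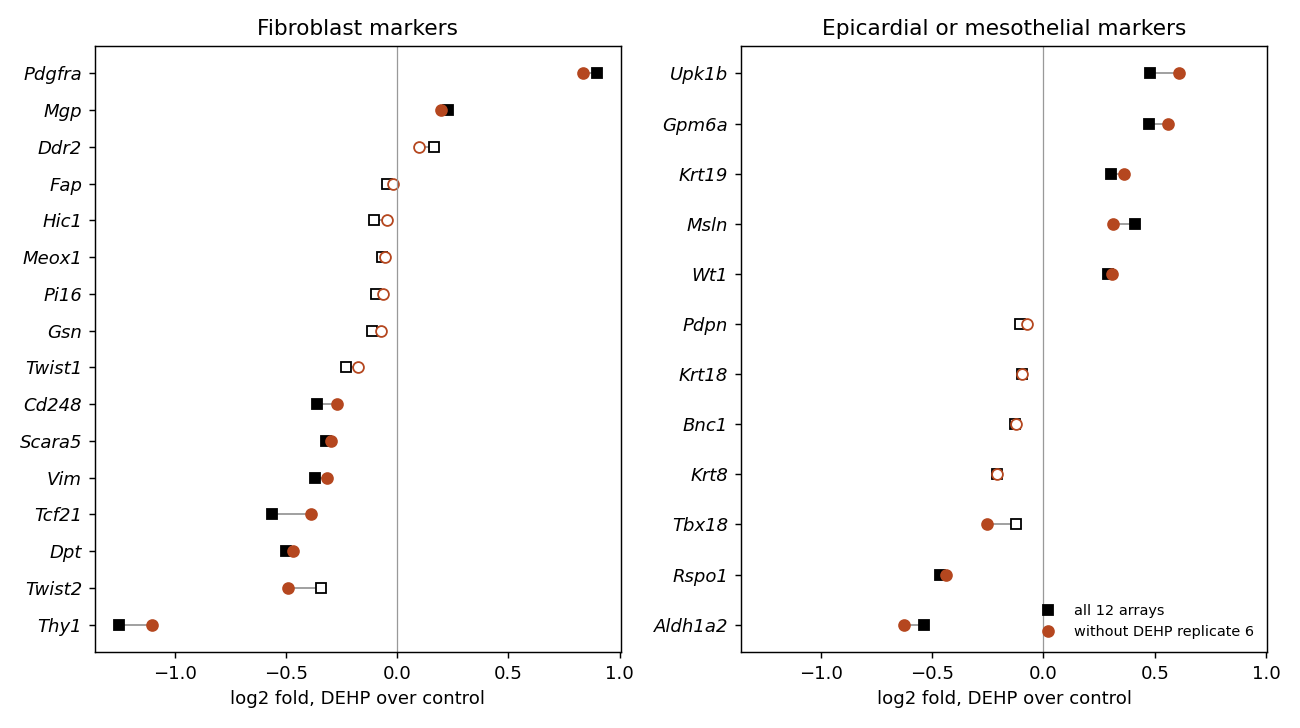
Log2 fold of each member, DEHP over control, from all 12 arrays (black squares) and without DEHP replicate 6 (orange circles), with filled symbols for an adjusted p under 0.05 and open symbols for members that did not pass. Twist2 and Tbx18 are the members whose symbol is open with all arrays and filled without that array.

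The groups did not overlap in 8 of 16 fibroblast markers and in 2 of 12 epicardial or mesothelial markers, where 16.9% of all genes did not overlap. Without DEHP replicate 6 these were 9 and 6, where 19.5% of all genes did not overlap. The epicardial or mesothelial genes added were Gpm6a, Upk1b, Krt19 and Aldh1a2, and the fibroblast gene added was Twist2. In Gpm6a, Upk1b and Krt19 DEHP replicate 6 lay on the low side of the DEHP group, and in Aldh1a2 and Twist2 on the high side. In each of these genes, and in Tbx18, that array ran against the fold. Leaving it out therefore had to give a larger fold. Only Twist2 and Tbx18 gained a call among the 28 members when that array was left out, and none lost one.

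Averaged over the 16 fibroblast markers, DEHP arrays had a log2 ratio of −0.10 ± 0.07 and control arrays of 0.09 ± 0.04 (SD, 6 arrays a group). Every DEHP array, from −0.24 in replicate 6 to −0.04, lay below every control array, from 0.03 to 0.14. The mean of the 12 epicardial or mesothelial markers came to 0.04 ± 0.03 in DEHP arrays and 0.02 ± 0.05 in control arrays (SD, 6 arrays a group), with ranges of 0.002 to 0.08 and −0.06 to 0.07 that overlapped.

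**Figure D4:**
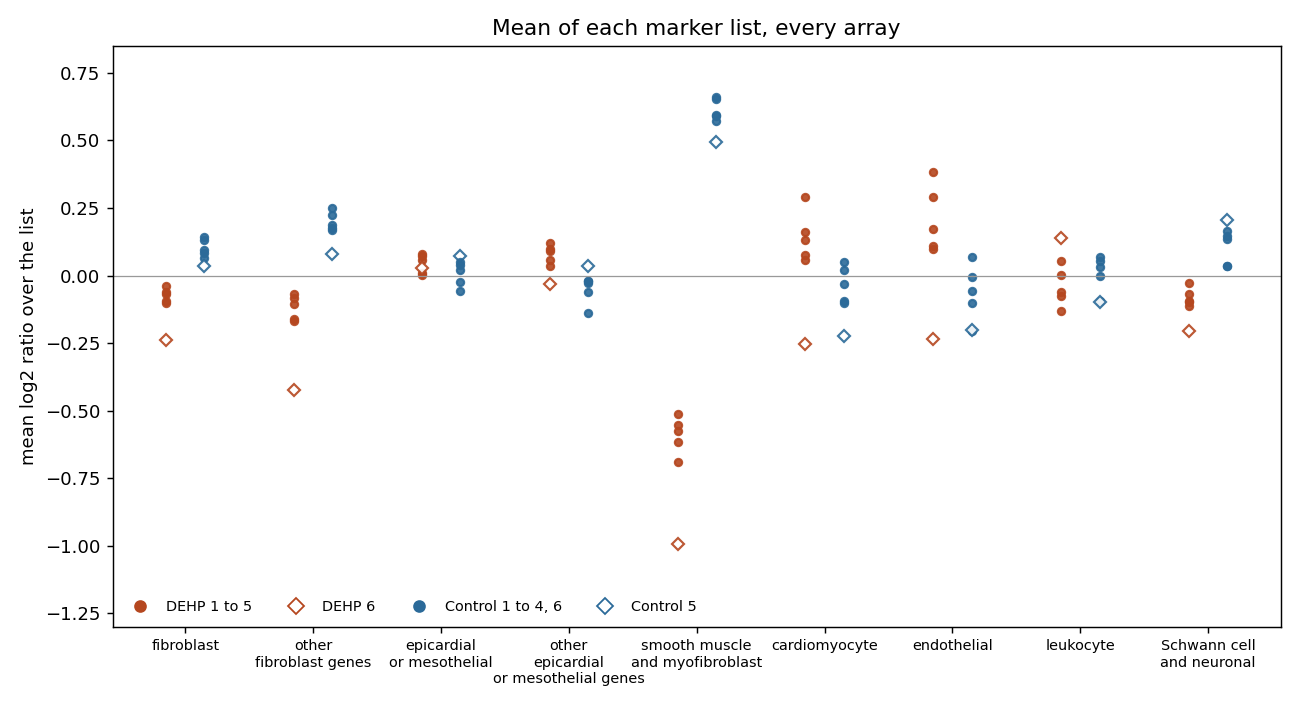
Mean log2 ratio over each marker list in every array, DEHP left of control, with DEHP replicate 6 and control replicate 5 as open diamonds. The smooth muscle list is furthest apart. The fibroblast lists and the Schwann cell and neuronal list are apart in the same direction, and the epicardial or mesothelial list overlaps. In the Schwann cell and neuronal list Tubb3 fell furthest, and it was the only gene of 7 whose own groups did not overlap.

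Markers of other cell types were read in the same arrays. Of cardiomyocyte markers 33.3% were called higher and 25% lower, and of endothelial markers 44.4% and 11.1%. Of leukocyte markers the shares were 20% and 10%, and of Schwann cell and neuronal markers 0% and 28.6%. Of smooth muscle and myofibroblast markers they were 0% and 100%, and over all genes 14.4% and 10.2%. All 11 measured smooth muscle and myofibroblast markers fell and 0 rose in limma, also 0 at an unadjusted p under 0.05, with Cnn1, smooth muscle calponin, at a log2 fold of −3.49. The mean of that list was −0.99 to −0.51 under DEHP and 0.50 to 0.66 in controls, so it moved with the fibroblast mean and was lowest in the same array, DEHP replicate 6, without which all 11 fell too. Of 12 cardiomyocyte markers 4 rose, 3 fell and 5 did not pass, with means of −0.25 to 0.29 under DEHP and −0.22 to 0.05 in controls, and DEHP replicate 6 was lowest. Without that array the DEHP means were 0.06 to 0.29, above every control mean, and 5 rose, 4 fell and 3 did not pass. The added calls were the ventricular light chain Myl2 (−0.27 ± 0.06, limma adjusted p = 0.00495) and phospholamban, Pln (0.14 ± 0.04, 0.032). With all arrays Myh6 (log2 fold 1.67 ± 0.12) and Ryr2 (1.125 ± 0.10) had the smallest p of this list, with no overlap between groups. They also had the largest rises of the list, and these weigh on its means. The median log2 fold of the list was near 0, at −0.035 with all arrays and 0.02 without DEHP replicate 6. Of 9 endothelial markers 4 rose and 1 fell, with means of −0.23 to 0.385 under DEHP and −0.21 to 0.07 in controls. The lowest of these was again DEHP replicate 6. Without it the DEHP means were 0.10 to 0.385, above every control mean. Then 5 rose and 1 fell, with the tight junction gene Cldn5 added (0.36 ± 0.09, limma adjusted p = 0.0187). Flt1 (−0.74 ± 0.10) and Tie1 (0.58 ± 0.11) had the smallest p of this list with all arrays. Leukocyte markers had 2 rises and 1 fall among 10, with means of −0.13 to 0.14 under DEHP and −0.10 to 0.07 in controls. DEHP replicate 6 was the highest, and without it the DEHP means were −0.13 to 0.05, with 2 rises and 3 falls. The falls added were in the macrophage genes Adgre1 (−0.79 ± 0.115, limma adjusted p = 0.00039) and Cd14 (−0.43 ± 0.08, 0.00238). In DEHP replicate 6 Adgre1 was at 0.98 and Cd14 at 0.68, above every control array in both. Csf1r (−0.41 ± 0.06) and Itgam (0.53 ± 0.09) had the smallest p among leukocyte markers with all arrays. Schwann cell and neuronal markers had 2 falls among 7 and means of −0.205 to −0.03 under DEHP and 0.04 to 0.205 in controls. DEHP replicate 6 was the lowest, and without it the DEHP means were −0.11 to −0.03 and 1 gene fell, since the glial gene S100b did not pass (limma adjusted p = 0.0655). The falls with all arrays were in Tubb3 (−0.995 ± 0.11) and S100b (−0.16 ± 0.05). Tubb3 was the only gene of the 7 whose groups did not overlap (14.3%, beside 16.9% of all genes), so the list means lean on it. The genes in these lists whose call changed without DEHP replicate 6 were chosen after their values were seen. Their part in the changes of fibroblast and epicardial markers was not tested, and no list can be said to be absent, since levels are not held.

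Other genes of the same cell types were read from lists that share no gene with the members. Of 19 other fibroblast genes 10 fell, 5 rose and 4 did not pass, with a median log2 fold of −0.26. In shares 52.6% were lower and 26.3% higher, beside 10.2% and 14.4% of all genes. Mfap5, a microfibril protein (−1.83 ± 0.09), S100a4, the calcium-binding protein also called fibroblast-specific protein (−1.24 ± 0.07), and Fstl1, a secreted follistatin-like protein (−0.69 ± 0.05), had the smallest p among the falls. Dcn, the proteoglycan decorin (0.41 ± 0.05), Entpd2, an ectonucleotidase (0.46 ± 0.06), and Fbln1, a fibulin of the matrix (0.52 ± 0.10), had the smallest p among the rises. Of 19 other epicardial or mesothelial genes 5 rose (26.3%), 3 fell (15.8%) and 11 did not pass. Their median log2 fold was −0.016 with all arrays and −0.077 without DEHP replicate 6. Slpi, a secreted protease inhibitor, was 2.40-fold higher (log2 fold 1.26 ± 0.11, limma adjusted p = 4.38e-06), and Podxl, podocalyxin, a sialomucin also found on endothelium (0.68 ± 0.10), and Bnc2, basonuclin 2 (0.44 ± 0.09), rose too. The falls were in complement C3 (−0.23 ± 0.055), the guidance protein Sema3d (−0.26 ± 0.06) and the annexin Anxa8 (−0.225 ± 0.065). Of these genes 7 rose and 2 fell without DEHP replicate 6. Anxa8 did not pass (limma adjusted p = 0.0584), while the claudin Cldn15 (0.28 ± 0.07, 0.017) and the fibulin-like matrix gene Efemp1 (0.645 ± 0.13, 0.00384) did. The counts of the other fibroblast genes were 10 and 5 without that array too, with a median of −0.18.

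In the retinoid pathway around Aldh1a2, 1 of 12 genes was higher, 1 was lower and 10 missed the threshold. These shares, 8.33% higher and 8.33% lower, were below the 14.4% and 10.2% of all genes. Rdh10, which makes the retinaldehyde that ALDH1A2 oxidises, ran from 0.36 to 0.86 (median 0.54) under DEHP and from −0.80 to −0.36 (median −0.42) in controls. It was 2.06-fold higher (log2 fold 1.04 ± 0.09), and the groups did not overlap. The fall was in Aldh1a3, a second retinaldehyde dehydrogenase (−0.23 ± 0.07). Leaving out DEHP replicate 6, 1 gene was higher, 2 were lower and 9 missed the threshold. The added gene was Cyp26b1, which breaks down retinoic acid, named here after its values were seen. It was at −0.34 to −0.03 in 5 DEHP arrays and 0.62 in DEHP replicate 6, against −0.003 to 0.45 in controls. Its log2 fold was −0.19 ± 0.14 with all arrays (limma adjusted p = 0.424) and −0.33 ± 0.08 without that array (0.0154). The enzymes of consecutive steps, Rdh10 and Aldh1a2, thus had folds of opposite sign.

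Around Rspo1, Lgr4, a receptor for R-spondins, rose (log2 fold 0.61 ± 0.14) and Rspo2 fell (−0.36 ± 0.07), while 3 of 5 genes did not pass. These counts were the same without DEHP replicate 6. Of these 5 genes 20% were higher and 20% lower, beside 14.4% and 10.2% of all genes. Among 13 factors and cadherins of the epithelial to mesenchymal transition 2 rose (15.4%), 3 fell (23.1%) and 8 did not pass. Cdh2, N-cadherin, was higher (0.37 ± 0.06) and Prrx2, a mesenchymal homeobox factor, lower (−0.38 ± 0.06), as were Id2 (−0.25 ± 0.05) and Id3 (−0.22 ± 0.07), inhibitors of basic helix-loop-helix factors. Tcf4, a partner of those factors, rose (0.17 ± 0.05). In the arrays other than DEHP replicate 6, 1 rose and 2 fell, since Id3 and Tcf4 did not pass, at limma adjusted p of 0.0649 and 0.0775. Snai1 did not pass (−0.23 ± 0.08, limma adjusted p = 0.0578). Of 15 other intermediate filament and lamin genes, 4 fell with Vim and 0 rose in limma, also 0 at an unadjusted p under 0.05, led by the lamins Lmna (−0.61 ± 0.06) and Lmnb1 (−0.53 ± 0.08) and by desmin, Des (−0.29 ± 0.06). There were 3 falls without DEHP replicate 6, since the keratin Krt10 did not pass (limma adjusted p = 0.0833). With all arrays 26.7% of this list was called lower, beside 10.2% of all genes.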

How the data were processed

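RNA of 12 cultures was hybridised to Affymetrix arrays. RMA, without a version, is named in the submitters' processing notes, and the authors deposited linear ratios. The median log2 ratio of every probe set was within 1e-04 of 0. The genome build is not given in the sources used here. Log2 of the deposited ratios was used without further normalization.

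Gene names came from the platform annotation, where 15097 had 1 gene symbol, 323 several and 11922 none listed. A gene took its lowest-numbered probe set. DEHP was compared with control by limma 3.58.1 (R 4.3.3, lmFit and eBayes, 12 arrays, two-sided, Benjamini-Hochberg over 27342 probe sets), and tested on simulated data. Folds are given ± SE. Members and lists were chosen with earlier results of these data known, so lists get counts and medians and no test. All members are named. Of the lists of related genes, up to 3 genes in each direction with the smallest p were named. For the lists of other cell types, genes with the smallest p were named. Some genes that did not pass, or whose call changed without DEHP replicate 6, were named too. The number of arrays limits precision. Plots used matplotlib 3.10.9. Alternatives were quantile normalization, median centring, robust eBayes, array weights, the replicate block, stricter thresholds, other probe set choices and arrays left out.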

Additional observations from a re-analysis of the deposited data

Results flagged for a closer look

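In 56 groups of 6 arrays, 2 for each of the 28 measured members, the array furthest out was compared with the rest by Dixon's test. In 15 groups that array lay apart, where chance gives about 1 in 20, and the 56 groups share the same 12 arrays. In 13 of the 15 it was DEHP replicate 6. It lay above the other DEHP arrays in Pdgfra (0.78 against 0.36 to 0.45), Ddr2 (0.42 against −0.05 to 0.09), Twist2 (0.56 against −0.35 to −0.24), Msln (0.76 against 0.04 to 0.30), Tbx18 (0.66 against −0.17 to −0.08) and Aldh1a2 (0.175 against −0.48 to −0.29). It lay below them in Tcf21 (−1.215 against −0.26 to −0.09), Thy1 (−1.42 against −0.64 to −0.41), Vim (−0.47 against −0.18 to −0.09), Cd248 (−0.64 against −0.14 to −0.01), Hic1 (−0.32 against −0.02 to 0.13), Gpm6a (−0.16 against 0.28 to 0.45) and Upk1b (−0.32 against 0.29 to 0.56).

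In 2 groups it was control replicate 5, which was lower than the other controls in Aldh1a2 (−0.175 against 0.26 to 0.42) and higher in Bnc1 (0.40 against −0.05 to 0.06). In Aldh1a2 the outlying array of each group thus lay on the side of the other group. The cause was not tested.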

How the results depend on the processing

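Signs of the 28 member folds held under quantile normalization, median centring, robust eBayes, array weights, the replicate block and both other probe set choices. Leaving out each array gave 5 to 7 fibroblast markers lower and 2 higher each time, 4 to 5 epicardial or mesothelial markers higher and 2 to 3 lower, medians of −0.225 to −0.126 and −0.109 to −0.066, and 4211 to 5556 probe sets called, beside 5016. The log2 fold of Fap ran from −0.19 to 0.014 and turned positive without control replicate 1, 3 or 4. Leaving out control replicate 5 gave 7 fibroblast markers lower and 2 higher, and 5 epicardial or mesothelial markers higher and 2 lower. Without control replicate 5 and DEHP replicate 6 together, 8 fibroblast markers were lower and 2 higher. In that setting 5 epicardial or mesothelial markers were higher and 3 lower, and Hic1 (0.005) and Meox1 (0.002) turned positive. Against a minimum fold of 1.2 (limma's treat), 1 fibroblast marker was higher and 1 lower, 0 epicardial or mesothelial markers were higher and 0 lower (1 and 2 at an unadjusted p under 0.05), and 1182 probe sets passed. At an adjusted p under 0.01, 2 epicardial or mesothelial markers were higher and 2 lower. Of the fibroblast markers 2 were higher and 4 lower at that threshold, and 3238 probe sets passed. With array weights 4 epicardial or mesothelial markers were lower, Krt8 and Tbx18 among them, and 7614 probe sets passed. Under quantile normalization, with array weights and with the replicate block, 8 fibroblast markers were lower, beside 6, with Twist1 and Twist2 added in the first pair of settings. Twist1 also passed when probe sets with 1 gene symbol were adjusted alone (0.0461) and as the mean of a gene's probe sets (0.0456). Replicate numbers were not taken as pairs, since the deviations of same-numbered arrays correlated at 0.07 to 0.77 and 2 of 6 DEHP arrays matched their own number best. The replicate block called 6541 probe sets and added Gsn (adjusted p = 0.0495) and Twist2 (0.0457). Brightness over background is not held in the ratios, so no filter on dim probe sets was run.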
